A study of Ovis aries with 4 samples.

Results

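Endothelium-like cells of the lactating sheep mammary gland were defined here by transcripts of SELP, SELE, KDR and ABCG2. A cell was taken as a member when it held at least 1 transcript of at least 2 of these 4 genes, none of RELN, CD3E, EPCAM, C1QA and EDNRA, and fewer than 5 of DCN. The excluded genes are markers of lymphatic endothelium, T cells, epithelium, macrophages, contractile vessel-wall cells and fibroblasts. The rule found 611 members among 38886 cells, or 1.57%, and LL replicate 1 held 90.5% of them.

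Mammary gland tissue of 4 lactating ewes (Ovis aries) was profiled by 10x droplet single-cell RNA sequencing, in which a captured transcript is tagged with the barcode of its cell and with a molecular tag (UMI) that lets copies be counted once. The design gives peak lactation for 2 of the ewes and late lactation for the other 2, with 1 library per ewe. The design abbreviates late lactation as LL, which leaves peak lactation for the libraries titled LH. No treatment, genotype, breed or age is given in the labels used here, and the labels name no sort or enrichment of cells.

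Endothelial cells line the blood vessels, and in the lactating gland their capillaries surround the alveoli and deliver the substrates of milk. P-selectin (SELP) and E-selectin (SELE) are adhesion molecules of venular endothelium that let passing leukocytes roll along the vessel wall, and inflammatory signals raise their level at the surface. KDR is the main signalling receptor for the vascular endothelial growth factor VEGFA. ABCG2 is an efflux pump of vessel walls and also of milk-secreting epithelium, where it carries compounds into milk.

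The members were unevenly spread over the 4 ewes. LH replicate 1 held 3 of 5853 cells (0.0513%, 95% exact Clopper-Pearson interval 0.0106 to 0.150%). LH replicate 2 held 16 of 9361 cells (0.171%, 0.0977 to 0.277%). LL replicate 1 held 553 of 12639 cells (4.38%, 4.03 to 4.75%), and LL replicate 2 held 39 of 11033 cells (0.353%, 0.251 to 0.483%). The intervals cover counting error only. LL replicate 1 therefore stood far above the other 3 libraries, among which LL replicate 2 was the highest. The mean share over 2 ewes was 0.111% ± 0.0846 (SD) at the LH stage. For LL it was 2.36% ± 2.84. The difference of 2.25 percentage points did not pass an exact two-sided permutation test (p = 0.33, the smallest that 2 against 2 ewes can give). Without LL replicate 1 the difference was 0.242 points. These are shares of dissociated cells, and the part of cell release from the tissue in them was not tested.

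**Figure D1:**
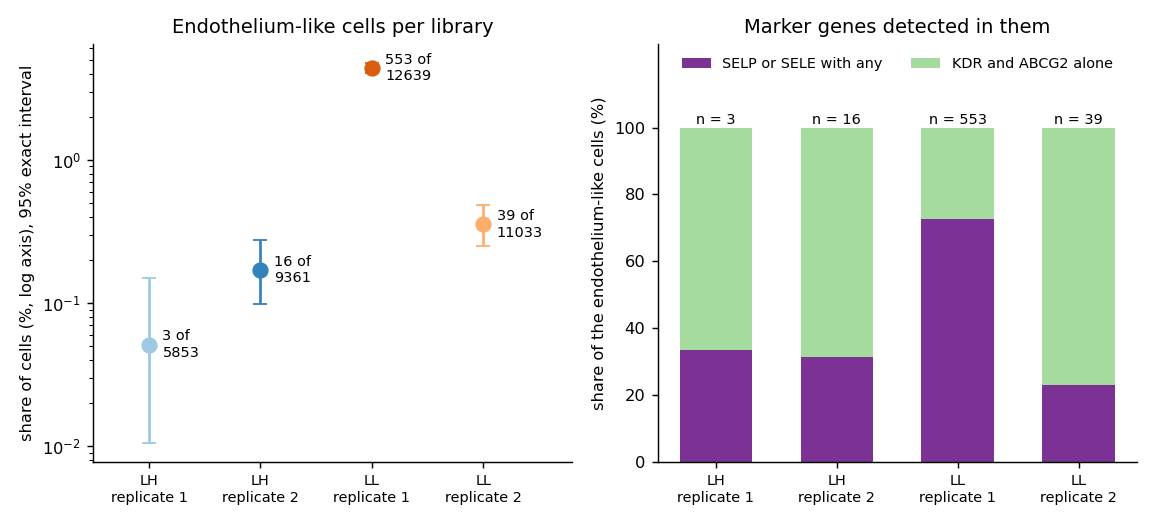
The left panel plots the endothelium-like cells as a share of the cells of each library in percent, on a log axis, with 95% exact intervals. The right panel splits the members of each library, in percent, into those with SELP or SELE and those with KDR and ABCG2 alone. LL replicate 1 stands above the rest in both panels, with 4.38% of its cells and SELP or SELE in 402 of its 553 members.

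Members were sequenced more deeply than other cells. Their median was 7220 and 7538 UMIs per cell in LH replicates 1 and 2 and 4086 and 4400 in LL replicates 1 and 2, against 3327.5, 2994, 3018 and 2711 in the other cells. When each cell was thinned to 1000 UMIs, 0, 3, 393 and 13 cells still met the rule in LH replicates 1 and 2 and LL replicates 1 and 2, out of 5539, 8274, 11639 and 10168 cells deep enough. The order of the libraries was the same in these thinned cells. All UMIs of the members came to 54835 and 109841 in LH and 3558248 and 251887 in LL, and 46639 of those in LH replicate 1 came from 1 cell. LH replicate 1 was therefore left out of averages and fold changes, which used the 3 libraries with at least 10 members. Pairs of libraries shared 15 to 39 cell barcodes, and none of these (0) was a member in both. Doublet calls fell on 1, 0, 20 and 2 members in LH replicates 1 and 2 and LL replicates 1 and 2. Among all cells of these libraries they fell on 4.4, 4.7, 4.4 and 4.9%.

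The 4 marker genes chose the members, so their values are a description. In LL replicate 1, 539 of the 553 members held ABCG2, 443 held KDR, 387 held SELP and 149 held SELE. In LL replicate 2, 38 of 39 members held ABCG2 and 35 held KDR, whereas 9 held SELP and 1 held SELE. In LH replicate 2, 14 of 16 members held ABCG2, 13 held KDR, 5 held SELP and 0 held SELE. The selectins were thus detected mainly in the members of LL replicate 1, while KDR and ABCG2 were detected in most members of LH replicate 2 and of both LL libraries. In levels, SELP reached 18.2 and 127 CPM (counts per 1000000 UMIs of the group) in LH replicates 1 and 2 and 1179 and 584 CPM in LL replicates 1 and 2. SELE was at 0 in both LH libraries, at 207 CPM in LL replicate 1 and at 15.9 CPM in LL replicate 2. KDR stood at 72.9 and 382 CPM in LH replicates 1 and 2 and at 463 and 453 CPM in LL replicates 1 and 2, so that LH replicate 1 was low and the other 3 were close together. Among T cells, taken as cells with CD3E and expected to lack SELP, 0.151 to 1.56% held a SELP transcript, with the highest share in LL replicate 1. T cells had median depths of 2607 to 3496 UMIs.

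The commonest marker combination differed between the libraries. In LL replicate 1 it was SELP with KDR and ABCG2, in 178 members, followed by KDR with ABCG2 alone in 151 and all 4 genes in 91. KDR with ABCG2 alone made up 11 of 16 members in LH replicate 2 and 30 of 39 in LL replicate 2. SELP or SELE was present in 31.2% of the members of LH replicate 2, 72.7% of those of LL replicate 1 and 23.1% of those of LL replicate 2.

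The label of blood endothelium was set beside genes outside the rule. The gene lists were chosen with earlier results of these data known, so the levels are a description. Of 39 listed blood endothelial genes, 3 outside the rule had a symbol in these libraries (GNG11, NR5A2 and CAV1). PECAM1, CDH5 and VWF, which would define endothelium most directly, were not analysed here. GNG11 encodes a G protein gamma subunit that is abundant in endothelium. It was at 255 and 346 CPM in the members of LH replicates 1 and 2 and at 467 and 711 CPM in those of LL replicates 1 and 2, against 123 CPM in the other cells of LL replicate 1 and 31.1 CPM or less in those of the other 3 libraries. NR5A2, a nuclear receptor, was at 18.2, 109, 126 and 99.3 CPM in members and at 0.29, 0.52, 10.8 and 0.72 CPM in other cells. CAV1, the main coat protein of caveolae, the plasma membrane pits that are dense in endothelium, was at 1003, 1293, 691 and 615 CPM in members and at 66.3 to 200.3 CPM in other cells. All 3 genes were higher in members in every library. As GNG11 and NR5A2 were known as markers of these cells from earlier results, this is no independent check of the label. GNG11 was about as high in cells with RELN, a lymphatic marker, in LH replicate 2 and both LL libraries. CAV1 was about as high in RELN cells of the LL libraries, but in LH replicate 2 they held 283 CPM. Neither gene thus separated blood from lymphatic endothelium in every library. F8, the 1 measured gene of the lymphatic list outside the rule, was also higher in members. GNG11 was held by 68.8%, 72.5% and 64.1% of members in LH replicate 2 and LL replicates 1 and 2, and by 2.04 to 8.03% of T cells over the 4 libraries.

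These genes differed sharply across the threshold of the rule, in cells that passed all exclusions. In LL replicate 1, GNG11 was at 43.6 CPM in cells with none of the 4 markers, 157 CPM in the 416 cells with 1 marker, 514 CPM in the 232 with 2, 443 CPM in the 230 with 3 and 448 CPM in the 91 with 4. NR5A2 followed with 1.39, 21.6, 129, 114 and 136 CPM. The level of both genes was thus much alike in cells just inside the rule and in cells with every marker. Other genes were not all so even from 2 to 3 to 4 markers in that library. CAV1 fell from 890 to 637 and 561 CPM and EDN1 from 66.8 to 52.1 and 33.9 CPM. FABP4 rose from 238 to 467 and 847 CPM, and cells with none of the markers held 265 CPM of it. F8 (188, 188 and 160 CPM) and SHROOM4 (224, 220 and 224 CPM) changed less. PAEP, a milk whey protein gene of the luminal epithelium, was at 1045 CPM in cells with 1 marker and at 50.3 CPM in those with 2. In LL replicate 2 GNG11 stood at 134 CPM in the 212 cells with 1 marker and at 718 CPM in the 35 with 2.

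**Figure D2:**
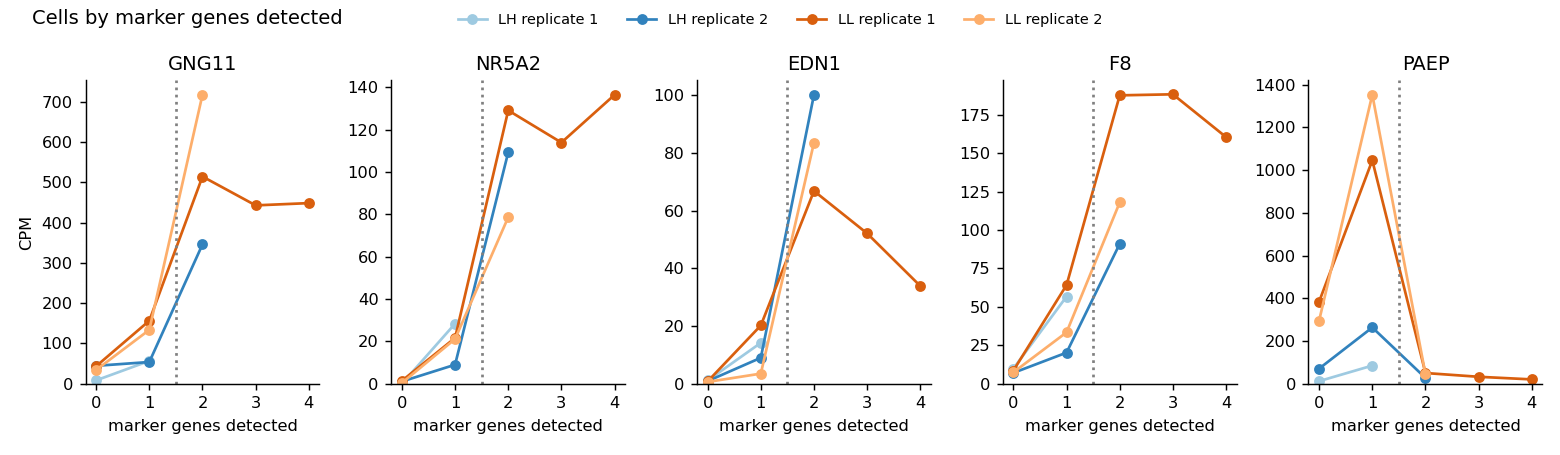
Each panel plots the level of 1 gene in CPM against how many of SELP, SELE, KDR and ABCG2 a cell held, in cells that passed all exclusions, with 1 line per library and groups of at least 10 cells. The dotted line marks the threshold of the rule. GNG11, NR5A2, EDN1 and F8 lie higher from 2 markers on, whereas PAEP peaks in cells with 1 marker and is at 20.5 to 50.3 CPM in the LL replicate 1 members.

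Summed by cell type, markers of cell types outside endothelium were lower in members than in the other cells of each library. Summed over 9 luminal genes outside the rule, members held 18.2, 200.3, 132 and 123 CPM in LH replicates 1 and 2 and LL replicates 1 and 2, against 1567, 5099, 2642 and 6321 CPM in other cells. At least 6 of these 9 genes were at 0 in members of each library except LL replicate 1, where 1 was. Summed over 7 T cell genes, members held 18.2 to 95.3 CPM against 233 to 1423 CPM in other cells, and CD3D was at 0 in the members of all 4 libraries. Over 6 fibroblast genes the sums were 264 to 553 CPM in members and 558 to 2442 CPM in other cells, and GSN, an actin-severing protein of many cell types, made up most of the sum in members. Over 4 contractile-cell genes the sums were 68.3 to 164 CPM in members and 255 to 643 CPM in other cells. Over the 2 macrophage genes outside the rule, CD14 and MRC1, they were 0 to 6.46 CPM in members and 10.5 to 24.05 CPM in other cells. CD14 was not lower in LL replicate 1, at 5.62 CPM in members, from 20 UMIs, and 5.56 CPM in other cells. In LL replicate 2 it was at 3.97 against 4.997 CPM, and it was at 0 in members of LH replicates 1 and 2. The mast cell gene TPSB2 and the cycling gene CDK1 were at 0 in members of LH replicate 1, LH replicate 2 and LL replicate 2 and at 0.28 and 0.56 CPM in those of LL replicate 1. Genes of platelets, which also carry SELP, were not analysed here.

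Across all genes, members differed widely from the other cells of the same library. Of 6776 genes with at least 20 CPM in either group, 5.58% (378 genes) were at least 2-fold higher in members in each of the 3 libraries and 8.23% (558) at least 2-fold lower, with 5 CPM added to both levels. Among the 351 of these that have a symbol, 6.55% (23) were higher and 12.5% (44) lower. Since the markers chose the cells, these counts are a description and no test was made. The shares of 5.58% and 8.23% are the background for the counts of list genes given below. The median log2 ratio over all genes was -0.08. Among genes without a symbol, ENSOARG00000016842 was at 865, 2402 and 1179 CPM in members of LH replicate 2 and LL replicates 1 and 2 and at 7.31, 222 and 9.31 CPM in other cells.

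NR5A2, GNG11 and the vasoactive gene EDN1 led the ranking. NR5A2 had the highest median log2 ratio of members over other cells among genes with a symbol outside the rule, at 4.19, followed by GNG11 at 4.06. EDN1, the precursor of the vasoconstrictor endothelin-1, came next at 3.76. It stood at 100.1, 50.9 and 71.5 CPM in members of LH replicate 2 and LL replicates 1 and 2 and at 2.16, 4.08 and 0.66 CPM in other cells. It was over 2-fold higher in each library. F8, the coagulation factor VIII gene, which endothelium of lymphatic and some blood vessels makes, was at 91.0, 179 and 143 CPM in members against 7.96, 36.1 and 13.3 CPM in other cells.

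Genes of membrane pits and of transport were higher as well. CAV1 had a median log2 ratio of 3.12, and CAV2, its partner in the caveolar coat, 2.03. AQP1, the water channel of capillary endothelium, was at 18.2, 78.4 and 51.6 CPM in members of LH replicate 2 and LL replicates 1 and 2 and at 2.60, 13.5 and 4.15 CPM in other cells. SLCO2A1, a prostaglandin transporter, had a ratio of 1.96, from 45.5, 13.2 and 15.9 CPM in members. It rested on 5, 47 and 4 UMIs. Of the 4 vessel-wall transporters measured outside the rule, AQP1 alone was over 2-fold higher in each library. Its levels in members rested on 2, 279 and 13 UMIs. SLC2A3, a glucose transporter, came close with 1011, 983 and 2076 CPM in members against 348, 515 and 324 CPM in other cells.

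Of 5 measured lipid-handling genes, FABP4 and FABP5 were over 2-fold higher in each library and 0 were over 2-fold lower. FABP4, a fatty acid carrier of capillary endothelium and fat cells, was at 155, 516 and 326 CPM in members of LH replicate 2 and LL replicates 1 and 2, or 332 ± 181 (SD, n = 3). Other cells held 13.5, 129 and 53.5 CPM. FABP4 was detected in 2 of 16, 223 of 553 and 11 of 39 members of these libraries. In LL replicate 2, 1 member with all 4 markers held 2635 CPM, while the 35 members with 2 markers held 78.6 CPM. The FABP4 level there thus leaned on 1 cell. FABP5, a related carrier, stood at 492, 967 and 266 CPM in members against 239, 274 and 128 CPM. PPARG, a lipid-sensing nuclear receptor, was at 127, 116 and 171 CPM in members and 52.2, 104 and 47.8 CPM in other cells. CPT1A, of mitochondrial fatty acid import, had a median log2 ratio of -0.09. ABHD5, a co-activator of fat breakdown, was lower in members of all 3 libraries, with log2 ratios from -1.37 to -0.82.

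The IGF and BMP axes held members of both kinds. IGFBP3, a circulating carrier of insulin-like growth factors, was at 519, 155 and 95.3 CPM in members of LH replicate 2 and LL replicates 1 and 2 and at 2.82, 72.4 and 17.4 CPM in other cells. IGFBP4, a related binding protein, was at 63.7, 65.8 and 19.9 CPM against 2.02, 14.9 and 3.99 CPM. IGFBP5 was lower in members, at 9.10, 18.8 and 143 CPM in members and 83.9, 245 and 146 CPM in other cells, with nearly equal levels in LL replicate 2. Of the 5 measured IGF genes, IGFBP3 and IGFBP4 were over 2-fold higher in each library. For IGFBP3 this turned with the rule: in LL replicate 1 the 402 members with SELP or SELE held 22.7 CPM, below the other cells, and the 151 with KDR and ABCG2 alone held 625 CPM. With at least 3 of the 4 markers required, the log2 ratio of IGFBP3 was -1.74. ID3, a transcriptional target of BMP signals, was at 910.4, 299.9 and 564 CPM in members against 149, 128 and 126 CPM. BMPR2, a type II BMP receptor, was at 137, 160.2 and 195 CPM against 52.1, 64.1 and 54.2 CPM. The type I receptor BMPR1A was lower, at 9.10, 9.56 and 3.97 CPM in members and 143, 124 and 148 CPM in other cells. Of 6 measured genes of that list, ID3 and BMPR2 were over 2-fold higher and BMPR1A over 2-fold lower in each library.

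**Figure D3:**
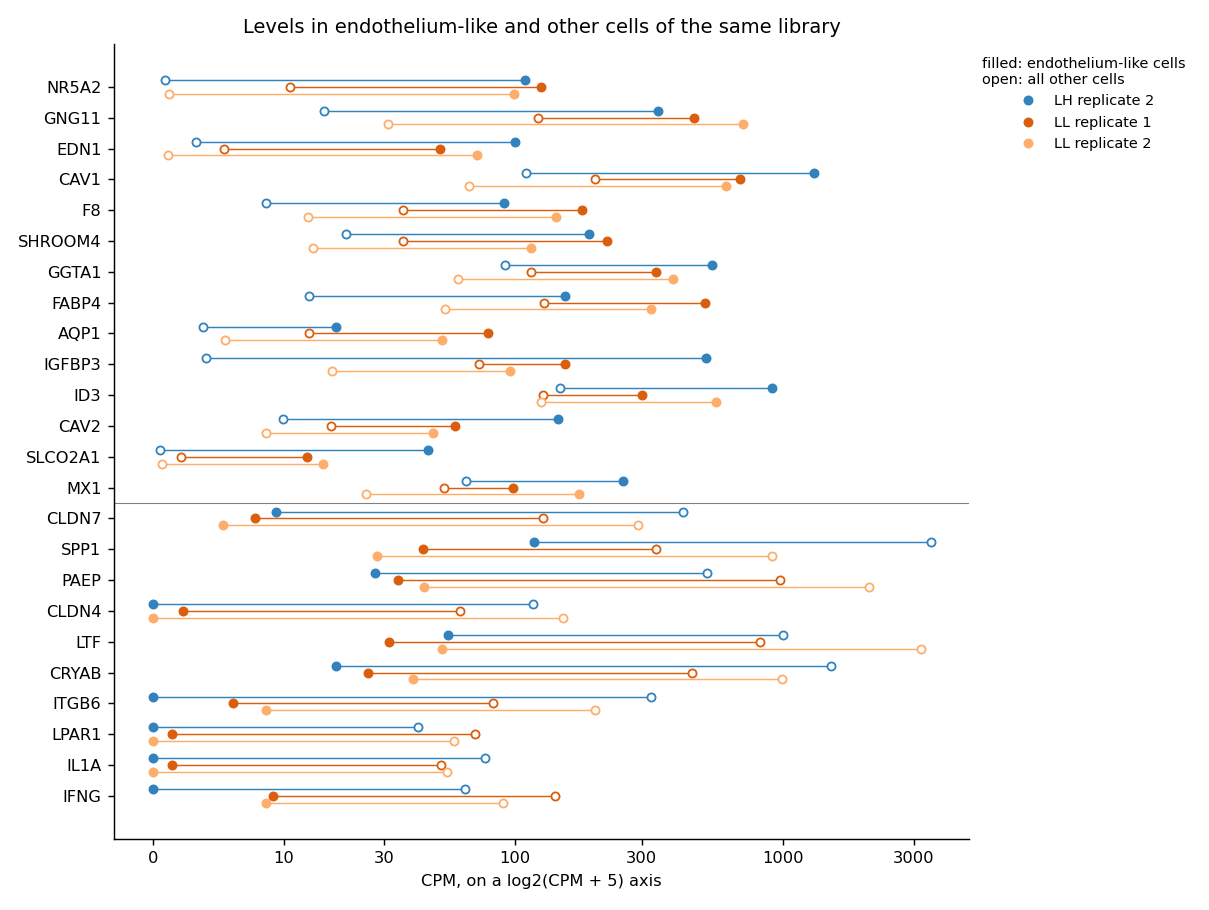
Levels in CPM, on a log2(CPM + 5) axis, are shown for 14 of the 15 genes with the highest and for the 10 with the lowest median ratio of members over other cells. Filled points are endothelium-like cells, open points are all other cells of the same library, and colours mark the 3 libraries with at least 10 members. In LH replicate 2 IGFBP3 has a wider gap than in the LL libraries, whereas GNG11 and CAV1 lie 2-fold or more above the other cells in all 3.

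Other genes among the highest were SHROOM4, an actin-binding protein, GGTA1, which makes the alpha-gal sugar, and MX1, an interferon-induced GTPase. SHROOM4 was at 191, 222 and 115 CPM in members and at 20.3, 36.0 and 14.3 CPM in other cells. GGTA1 was at 546, 338 and 393 CPM against 91.4, 115 and 60.1 CPM. MX1 had a median log2 ratio of 1.90, but in LL replicate 1 it stood at 98.6 CPM against 52.7 CPM, which is under 2-fold.

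The inflammatory genes of the venular wall were not uniformly high. ICAM1, an adhesion receptor through which leukocytes stop and cross the wall, was at 27.3 CPM in members of LH replicate 2, below the 36.3 CPM of other cells there. In LL replicates 1 and 2 it was at 194 and 127 CPM against 52.4 and 37.0 CPM. IL6, a cytokine, was at 0 in the members of LH replicate 2 and at 38.5 and 35.7 CPM in those of the LL libraries, with 8.26 and 8.87 CPM in other cells of the latter. Members of both LL libraries thus held more ICAM1 and IL6 than other cells. In LH the values rest on few UMIs, as the ICAM1 level of LH replicate 2 came from 3 UMIs, and the 3 members of LH replicate 1 held 54.7 CPM of ICAM1 against 35.9 CPM in other cells. Of the 8 measured chemokine and cytokine genes, 5 were over 2-fold lower in members in each library and 0 higher. Over all 6776 genes, 8.23% were at least 2-fold lower and 5.58% higher. The 5 were IL1A, TNF, CXCL8, IL18 and CCL28. As the rule left out cells with CD3E, C1QA or EPCAM, low levels of leukocyte or epithelial genes partly follow from it. IL15 was higher in each library, with log2 ratios of 0.31 to 0.94. IL1A, TNF and CXCL8, cytokines made largely by leukocytes, were at 0 to 3.65 CPM in members of all 4 libraries. Of the 7 measured genes of NF-kappa-B and interferon responses, 0 were over 2-fold higher or lower in each library, with a median log2 ratio of 0.59.

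The lowest genes relative to other cells were mostly epithelial, and the rule had left out cells with EPCAM. CLDN7, an epithelial tight junction protein, was at 9.10, 6.74 and 3.97 CPM in members of LH replicate 2 and LL replicates 1 and 2 and at 427, 128 and 291 CPM in other cells. SPP1, a secreted phosphoprotein abundant in milk, was at 118, 43.6 and 27.8 CPM against 3457, 338 and 909 CPM. LTF, the milk iron-binding protein lactoferrin, was at 54.6, 31.5 and 51.6 CPM against 998, 821 and 3191 CPM. PAEP, CLDN4, CRYAB, ITGB6, LPAR1, IL1A and IFNG completed the 10 lowest, with median log2 ratios of -4.64 to -3.42. IFNG, the T cell cytokine interferon gamma, was the last of these. Of 7 measured matrix genes outside the rule, 3 were over 2-fold lower in each library: BGN, MMP7 and TIMP2. Among the other lists, 0 of 8 measured immediate early genes, 0 of 3 oxidative phosphorylation genes and 0 of 3 leukocyte adhesion genes outside the rule were over 2-fold apart in each library, and of 4 clock genes CRY1 was lower. VEGFA, the ligand of KDR, was at 9.10, 10.1 and 0 CPM in members of the 3 libraries and at 30.5, 18.5 and 32.5 CPM in other cells. In LH replicate 1 it was higher in members, at 164 against 17.8 CPM, from 9 UMIs. TIMP3, a matrix-bound protease inhibitor, was at 1193, 1656 and 1707 CPM in members against 501, 1153 and 643 CPM.

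Members were compared with cells that held at least 2 UMIs of RELN, a secreted matrix protein of lymphatic endothelium, and fewer than 2 of the 4 markers, with the same other exclusions. There were 30, 53, 284 and 167 such RELN cells in LH replicates 1 and 2 and LL replicates 1 and 2. Members were at least 2-fold higher in each of the 3 libraries for 3.78% of the 6776 genes (256) and lower for 2.58% (175), again as a description. GNG11 and CAV1 did not separate the groups in every library. GNG11 was at 238, 614 and 536 CPM in RELN cells of LH replicate 2 and LL replicates 1 and 2, close to its range in members. CAV1 was at 283, 905 and 550.2 CPM in these RELN cells, against 1293, 691 and 615 CPM in members. In LH replicate 2 it was thus over 2-fold higher in members. F8 was at 122, 282 and 235 CPM in RELN cells, above its level in members in each of these libraries.

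Several genes stood higher in the members. NR5A2 was at 0, 14.1 and 6.23 CPM in RELN cells and at 99.3 to 126 CPM in members. EDN1 was at 0, 5.03 and 0 CPM in RELN cells, and IGFBP3 at 6.42, 12.1 and 0 CPM. Both were at least 2-fold below the members of each library, as were 3.78% of the 6776 genes (256). GULP1, an adaptor of particle uptake, was at 246, 182 and 286 CPM in members and 77.1, 16.1 and 27.0 CPM in RELN cells. PSMB8, a subunit of the immunoproteasome, was at 619, 391 and 588 CPM in members and 89.9, 75.5 and 189 CPM in RELN cells. FABP4 was at 31.1 to 43.3 CPM in RELN cells, also at least 2-fold below the members of each library.

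IGFBP5, TIMP2 and TIMP1 stood higher in the RELN cells. IGFBP5 was at 321, 1768 and 3278 CPM in them, while members held 9.10, 18.8 and 143 CPM. TIMP2, a metalloprotease inhibitor, was at 135, 415 and 411 CPM in RELN cells and at 9.10, 15.5 and 51.6 CPM in members. TIMP1 was at 829, 544 and 446 CPM against 209, 133 and 107 CPM. All of these were at least 2-fold higher in RELN cells in each of these 3 libraries, as were 2.58% of the 6776 genes (175). EDNRA cells, with at least 1 UMI of the endothelin receptor A gene and chosen in the same way, numbered 278, 1644, 1380 and 1353. They held 0 to 0.66 CPM of NR5A2 and at most 2.00 CPM of EDN1, but 46.0 to 309 CPM of FABP4.

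**Figure D4:**
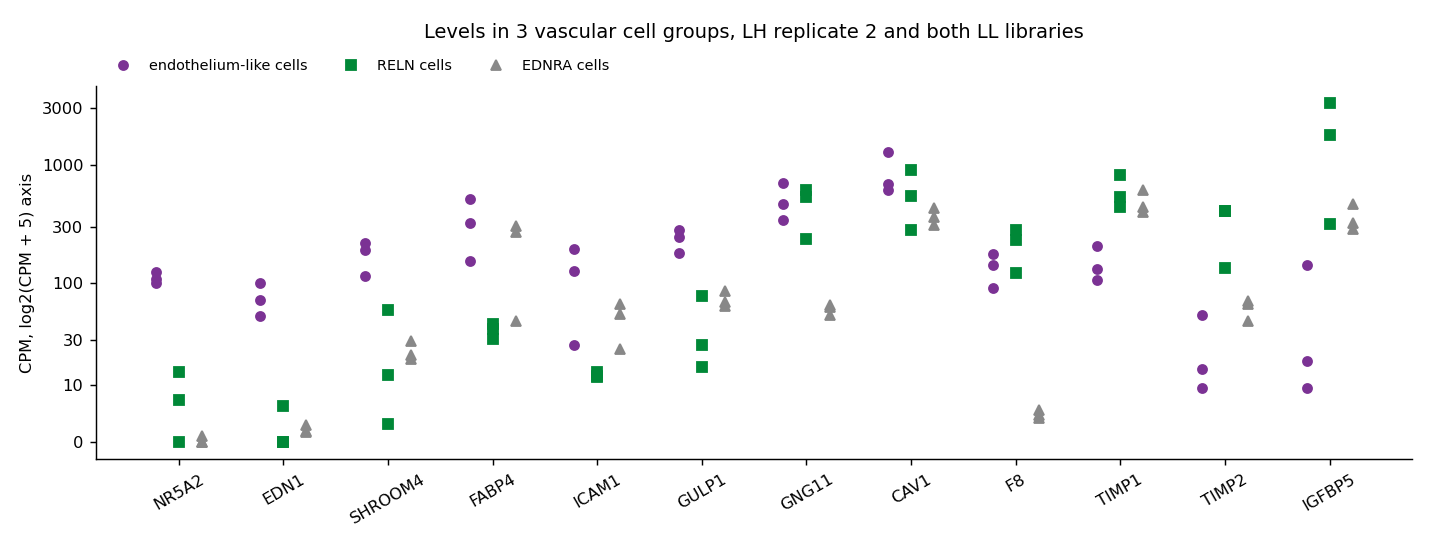
Levels in CPM, on a log2(CPM + 5) axis, are plotted for 12 genes in endothelium-like cells (circles), RELN cells (squares) and EDNRA cells (triangles), with 1 point for each of LH replicate 2, LL replicate 1 and LL replicate 2. NR5A2 and EDN1 are at 50.9 CPM or more in endothelium-like cells and at 14.1 CPM or less in the other groups, whereas GNG11 and CAV1 overlap between endothelium-like and RELN cells and IGFBP5 is highest in RELN cells.

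The exclusion of RELN removed many cells in LL replicate 1. There, 1022 cells held at least 2 of the 4 markers, and 250 of the 469 left out failed on RELN alone. Of those 250 cells, 79 held 1 RELN UMI. Their RELN level was 520 CPM, against 1659 CPM in the RELN cells of that library, and their SELP level was 768 CPM, against 2.01 CPM in RELN cells. NR5A2 was at 107 CPM in them and FABP4 at 319 CPM, both nearer to the members than to the RELN cells. The median depth of these 250 cells was 6079 UMIs, against 4086 in the members of that library. In LL replicate 2 the 34 cells left out for RELN alone held RELN at 1147 CPM and SELP at 0. NR5A2 was at 23.5 CPM and FABP4 at 11.8 CPM in them, both nearer to the RELN cells there. The 34 cells had a median depth of 3542 UMIs, against 4400 in the members of LL replicate 2. RELN and SELP took part in choosing these groups in both libraries, so their levels do not show which group the cells resemble. The cells left out also held at least 2 of the 4 markers, as members did and RELN cells did not. With RELN not used for exclusion the libraries held 13, 17, 803 and 73 members. EPCAM alone removed 1, 10, 59 and 53 cells.

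Members with SELP or SELE were set beside those with KDR and ABCG2 alone, within LH replicate 2 (5 and 11 cells), LL replicate 1 (402 and 151 cells) and LL replicate 2 (9 and 30 cells). Since the split uses rule genes that were measured in the same cells, it is a description. Of 6393 genes, 0.704% (45) were at least 2-fold higher in the SELP or SELE cells in all 3 libraries and 1.61% (103) at least 2-fold lower, including 9 and 9 of the 317 genes with a symbol. The median depth was 4606 and 8158 UMIs in LH replicate 2, 4345.5 and 3291 in LL replicate 1 and 5997 and 4112 in LL replicate 2, for the SELP or SELE cells and the others in that order. Values in LH replicate 2 and LL replicate 2 rest on few UMIs.

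FABP4, DQA and AQP1 were among the genes higher in the SELP or SELE cells. FABP4 was at 380.0, 617 and 1017 CPM in them and at 83.8, 156 and 65.6 CPM in the KDR and ABCG2 cells of LH replicate 2 and LL replicates 1 and 2. Among the 9 SELP or SELE cells of LL replicate 2, 1 cell held 22392 of the 68856 UMIs and FABP4 at 2635 CPM. DQA, a chain of the class II histocompatibility complex that presents peptides to T cells, was at 380.0, 287 and 232 CPM against 11.97, 100.05 and 5.46 CPM. AQP1 was at 76.0, 91.4 and 159.8 CPM against 0, 32.1 and 10.9 CPM. The sign was the same in all 3 libraries for these genes, whereas the related carrier FABP5 was lower in the SELP or SELE cells of LH replicate 2, at 342 against 539 CPM, and higher in those of LL replicate 2, at 537 against 164 CPM. STAT5A, TLR4, PDIA5 and SLCO2A1 were also among the 9 higher genes, of which TLR4, the receptor for bacterial lipopolysaccharide, was at 76.0, 50.4 and 29.0 CPM against 23.9, 12.8 and 10.9 CPM. TLR4 rested on 2 UMIs in each subset of LH replicate 2 and of LL replicate 2.

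ICAM1 and IL6 were higher in the SELP or SELE cells of the LL libraries. ICAM1 was at 231 and 319.5 CPM in those of LL replicates 1 and 2 and at 62.8 and 54.6 CPM in the KDR and ABCG2 cells. Cells outside the members held 52.4 and 37.0 CPM there, so ICAM1 was not confined to the SELP or SELE cells. In LH replicate 2 it was at 38.0 and 23.9 CPM, from 1 and 2 UMIs, so that no difference was detectable there. IL6 was at 48.2 and 131 CPM in the SELP or SELE cells of LL replicates 1 and 2 and at 3.85 and 0 CPM in the others, and at 0 in both subsets of LH replicate 2. The IL6 level of LL replicate 2 rested on 9 UMIs.

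IGFBP3, SPARC, ID3 and TGFB1 were among the genes higher in the KDR and ABCG2 cells. IGFBP3 was at 623, 625 and 120.2 CPM in them and at 190.0, 22.7 and 29.0 CPM in the SELP or SELE cells of LH replicate 2 and LL replicates 1 and 2. SPARC, a collagen-binding secreted protein, was at 215.5, 83.4 and 273 CPM against 38.0, 30.2 and 72.6 CPM. ID3 was at 1054, 522 and 710 CPM against 456, 238 and 174 CPM. TGFB1, a growth factor, was at 71.8, 42.3 and 98.3 CPM against 0, 15.5 and 0 CPM. IGFBP3, SPARC, ID3 and TGFB1 kept 1 direction in all 3 libraries. CAV1 did not, with a log2 ratio from -0.71 to 0.21, nor did NR5A2.

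**Figure D5:**
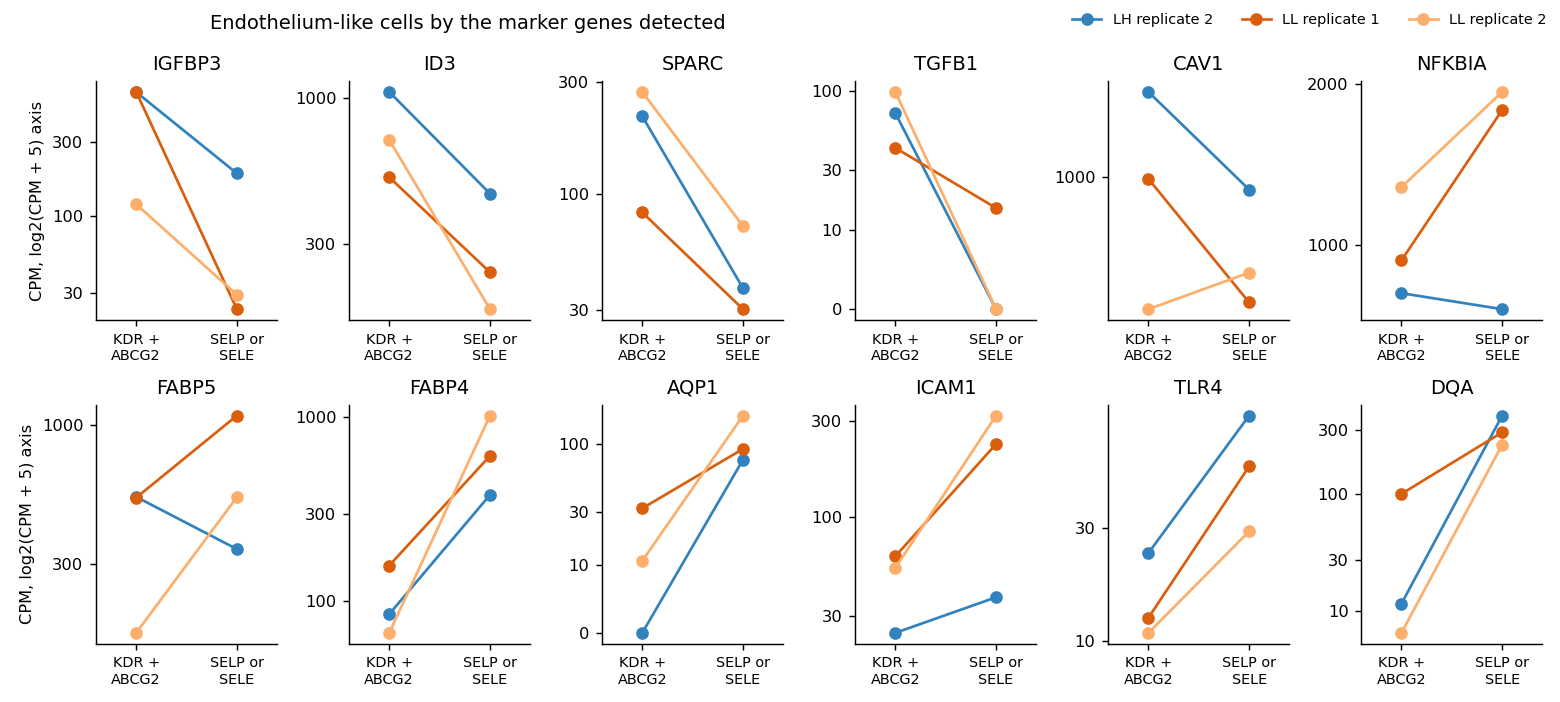
For 12 genes the level in CPM, on a log2(CPM + 5) axis that differs between panels, is drawn in members with KDR and ABCG2 alone (left point) and in members with SELP or SELE (right point), with 1 line per library. IGFBP3, ID3, SPARC and TGFB1 are lower in the SELP or SELE cells of all 3 libraries and FABP4, AQP1, TLR4 and DQA higher. ICAM1 is higher in them in both LL libraries and rests on 1 and 2 UMIs in LH replicate 2, and CAV1, NFKBIA and FABP5 differ in sign between libraries.

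The stages were compared within the members, with UMIs summed per library. LH replicate 1 had too few members, so LH replicate 2 alone was set against LL replicates 1 and 2, and the lone LH library was assumed to vary as the LL libraries do. With the quasi-likelihood test of edgeR and Benjamini-Hochberg adjustment over 4854 genes, 0.103% of the genes (5) passed an adjusted p of 0.05. Of these, 1 was higher in LL (0.0206%) and 4 were lower (0.0824%). None had a symbol (0 of 5), and 458 genes had an unadjusted p under 0.05. No gene passed (0 higher, 0 lower) when the 3 members of LH replicate 1 were added, with 225 genes at an unadjusted p under 0.05. The same count of 0 and 0 was found with RELN not used for exclusion, with 257 such genes. LH rests here on 16 cells of 1 ewe.

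The gene that was higher in LL, ENSOARG00000014841, was at 2372.5 CPM in LH replicate 2 and at 9472 and 10655 CPM in LL replicates 1 and 2, on TMM-scaled totals (log2 change 2.08 ± 0.21 SE, edgeR adjusted p = 0.00221). In the other cells of the same libraries it stood, on unscaled totals, at 1546, 2414 and 2856 CPM, also lower in LH replicate 2. The gene with the largest fall, ENSOARG00000020376, was at 309 CPM in LH replicate 2 and at 0.93 and 4.24 CPM in the LL libraries (log2 change -7.88 ± 0.66 SE, edgeR adjusted p = 0.000607). It rested on 33 UMIs in LH replicate 2 and was at 0 in the 3 members of LH replicate 1. ENSOARG00000003586 was at 3066 CPM in LH replicate 2 and at 695 and 873 CPM in the LL libraries (log2 change -1.97 ± 0.29 SE, edgeR adjusted p = 0.0311). Here the members of LH replicate 1, outside the fit, were high as well, at 4395 CPM on unscaled totals, from 241 UMIs. The same held for another of the lower genes, at 711 and 583 CPM on unscaled totals in LH replicates 1 and 2 and at 89.9 and 55.6 CPM in LL replicates 1 and 2. The last lower gene was at 0 in LH replicate 1 and at 309.5, 21.6 and 47.6 CPM in the other libraries. Of the 4 lower genes, 2 were thus high in the members of both LH libraries and 2 in those of LH replicate 2 alone, although 1 cell held most UMIs of LH replicate 1.

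The 10 genes with a symbol and the lowest p did not pass the threshold. ZFP36, which destabilises inflammatory messenger RNAs, was at 731 CPM in LH replicate 2 and at 2479 and 3108 CPM in LL replicates 1 and 2 (log2 difference 1.93 ± 0.32 SE, edgeR adjusted p = 0.0627). IGFBP3 was at 535, 171 and 102 CPM (-1.90 ± 0.40 SE, edgeR adjusted p = 0.163). ICAM1 was at 28.1, 215 and 136 CPM (2.69 ± 0.70 SE, edgeR adjusted p = 0.247). The share of members with SELP or SELE was 31.2%, 72.7% and 23.1% in the same libraries, and IGFBP3 and ICAM1 differed between the subsets; the part of that mixture in the stage differences was not tested. ASIP, an agouti signalling protein, was at 591, 148 and 119 CPM (-2.11 ± 0.36 SE, edgeR adjusted p = 0.0832). The others were IRF1, FABP4, NFKBIA, ACACA, MX2 and THRA, with edgeR adjusted p-values of 0.339 to 0.411.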

How the data were processed

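The deposited UMI counts per gene and barcode of 4 libraries were used. Per the file headers they were made with Cell Ranger 7.2.0, whereas the submitters' processing notes name Seurat 3.2.0, STAR and Cell Ranger 5.0.1. The annotation and genome build are not given in the sources used here. Of 20150 genes 774 had a symbol, 762 of which were found in the supplied reference table, and 0 identifiers matched it. Named genes held 9.33 to 11.5% of the members' UMIs. Total UMIs were 28015149 and 56178927 (LH) and 60303230 and 65339993 (LL). Groups and replicate numbers came from the sample titles.

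Barcodes with over 20% of UMIs in 13 mitochondrial genes were left out (102, 19, 94 and 145 in the libraries, LH first). No doublets were removed, apart from those that the exclusion genes remove; Scrublet (scanpy 1.11.5) calls per library, with an expected rate of 6%, served as an alternative. Its automatic threshold gave no usable calls in LH replicate 1, where the highest 5% of scores were called.

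Levels are CPM of a group's UMIs, with 5 CPM added before log2 ratios. Genes were named among those with a symbol outside the rule, at 20 CPM or more and with 1 direction in each library with at least 10 members: the 15 highest and 10 lowest median ratios, every measured member of the gene lists, and for the stages the 10 lowest p-values. Genes of the RELN and marker-subset comparisons were named for being at least 2-fold apart or near equal, after their values were seen. Stages were compared with edgeR 4.0.16 in R 4.3.3 (TMM, filterByExpr with a minimum count of 10), with DESeq2 1.42.0 as an alternative. CPM printed beside these log2 changes used TMM-scaled totals. The SE beside them was derived from the test, as the absolute log2 change divided by the square root of its F statistic. The scripts were tested on simulated data. Members and gene lists were chosen with earlier results of these data known. The RELN and EDNRA comparison cells, the marker subsets, thinning, the members with RELN allowed and the fits on all 4 libraries were chosen after seeing the data. Some results are not reported here.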

Additional observations from a re-analysis of the deposited data

How the results depend on the processing

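The difference in share stayed positive under all settings tried and ranged from 0.242 to 4.26 points when 1 library was left out. With at least 3 of the 4 markers, or without ABCG2 as a marker, only LL replicate 1 had 10 members. The count of genes over 2-fold lower than in other cells was then 1052 and 1044, and IGFBP3 reversed to -1.74 and -1.76 on the log2 scale. Leaving out 1 library gave 418 to 582 genes higher and 676 to 710 lower. Of 275 values of named genes under these settings, 238 moved by less than the spread between libraries, 35 by more and 2 reversed.

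The stage counts were unstable. Genes higher in LL numbered 2 with at most 10% mitochondrial UMIs, 6 with at least 1000 UMIs per cell, 2 without doublet calls, 7 with 16 members drawn per library, 65 (and 31 lower) without the count filter and 5 (and 2 lower) with DESeq2. The size factors of DESeq2 in edgeR left 1 gene lower. With RELN not used for exclusion edgeR called 0 higher and 0 lower (257 genes at an unadjusted p under 0.05), and with all 4 libraries 0 and 0 (225 genes). The replicate block, possible only with all 4 libraries, gave 0 higher and 0 lower (150 genes); the numbers do not pair ewes. Leaving out 1 of the 4 libraries gave 2 to 62 genes higher and 4 to 87 lower for LH replicate 2 and the LL libraries, the highest counts without LH replicate 2, which left the 3 members of LH replicate 1 for that stage. There ASIP reversed to 0.68, IGFBP3 to 3.06 and ACACA to -0.59, and ACACA was -0.67 with RELN not used. The causes were not tested. ZFP36 passed the threshold under 5 settings, with adjusted p-values from 8.46e-05 to 1 over all of them. The fit with at least 3 markers could not be run, as LH then had no members, nor could leaving out a library from 3, as no residual degrees of freedom were left. The number of LH members, 3 and 16 cells, limits any statement on that stage.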
